A study of Mus musculus with 33 samples.

Results

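The silencing of the X chromosome was followed gene by gene in wildtype (WT) mouse embryonic stem (ES) cells, through 350 X-linked genes. These were the genes with a mean of 20 or more allelic counts over the 6 WT RNA libraries, out of 1063 X-linked genes and 24391 genes in the deposited table, and 713 X-linked genes fell under that minimum. The cells were a CAST/Ei x 129/Sv/Jae hybrid line, in which a read over a strain variant can be assigned to one parental chromosome, and the deposited columns name the alleles cas and mus. They were kept on irradiated embryonic fibroblast feeders with LIF, freed of feeders, left to form embryoid bodies in suspension and plated on gelatin at day 4. Polyadenylated RNA was sequenced at days 5, 6, 7, 8 and 10 of differentiation and at day 0, with 1 library per day and no replicate culture, so the course is that of 1 line in 1 experiment. The series holds 33 samples, of which the 6 RepB RNA libraries (the genotype named after Repeat B of Xist) enter only at the end and 21 ChIP and input samples were not analysed here. For each gene and day the measure was the cas share, the percentage of allelic counts that came from the cas chromosome.

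In female mammals X-inactivation silences most genes of one X chromosome. The noncoding RNA Xist is transcribed from the X that will be silenced, spreads along it in cis and recruits repressive complexes that remove active marks and add repressive histone marks. Female ES cells carry both X chromosomes active, and inactivation sets in as they differentiate. Genes differ in how soon they fall silent, and a minority, the escape genes, stay expressed from the inactive X.

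Xist came almost wholly from the mus chromosome in these libraries. The cas chromosome gave 3.19% of its counts at day 0 and 1.89%, 3.17%, 2.57%, 4.32% and 2.61% at days 5, 6, 7, 8 and 10, over 1642 to 6402 allelic counts a day. A rise of the cas share of another X-linked gene is therefore a loss of counts from the chromosome that gave Xist, relative to its partner. The exon listed first for Xist, which need not be its 5′ exon, spans 100655712 to 100663375 of mm9 chromosome X. Feeder and fibroblast markers were present at day 0, and the part of feeder RNA in the day 0 Xist counts was not tested. Xist stood at 97.4 mus CPM (counts scaled to library size with TMM factors) at day 0 and at 348, 355, 389, 204 and 276 mus CPM later. Its mus counts rose over days 5 to 10 (log2 1.68, edgeR adjusted p = 0.0135), as did its few cas counts (log2 1.49, adjusted p = 0.00833).

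Genes were placed by the first day on which the cas share was at least 90% and stayed there when that day and all later days were pooled. A class was given to the 274 genes whose day 0 share lay between 25% and 75% and that had 10 or more allelic counts in every library. Of these, 33 genes (12.04%) reached 90% at day 5 and are called early. Another 117 (42.7%) did so at day 6 or 7, the middle class, and 56 (20.4%) at day 8 or 10, the late class. The remaining 68 (24.8%) never did, of which 46 ended at 75% to 90% at day 10 and 22 ended below 75%. Outside the classes, 22 genes lay beyond the day 0 window, 9 of them below 25% and 13 above 75%, and 54 had under 10 allelic counts in some library.

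The promoters of the most deeply covered member of each class with a single listed start are shown so that genes of different speed can be set beside each other. Each runs from 250 bases before to 50 bases after the RefSeq start in GRCm38.p6, 5′ to 3′ on the gene's strand, and capitals mark CG dinucleotides, the sites that DNA methylation uses on the inactive X. They are Flna (early, chrX:74246485-74246784, minus strand), Huwe1 (middle, chrX:151803032-151803331, plus strand), Idh3g (late, chrX:73786848-73787147, minus strand), Dkc1 (never 90%, ending at 75% or more, chrX:75095604-75095903, plus strand) and Nono (never 90%, ending below 75%, chrX:101429401-101429700, plus strand).
Flna: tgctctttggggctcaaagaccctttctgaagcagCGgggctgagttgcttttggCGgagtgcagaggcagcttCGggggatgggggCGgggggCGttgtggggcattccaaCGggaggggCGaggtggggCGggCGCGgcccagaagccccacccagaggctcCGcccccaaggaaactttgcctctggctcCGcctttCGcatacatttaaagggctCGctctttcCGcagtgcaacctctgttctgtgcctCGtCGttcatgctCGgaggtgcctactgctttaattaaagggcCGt
Huwe1: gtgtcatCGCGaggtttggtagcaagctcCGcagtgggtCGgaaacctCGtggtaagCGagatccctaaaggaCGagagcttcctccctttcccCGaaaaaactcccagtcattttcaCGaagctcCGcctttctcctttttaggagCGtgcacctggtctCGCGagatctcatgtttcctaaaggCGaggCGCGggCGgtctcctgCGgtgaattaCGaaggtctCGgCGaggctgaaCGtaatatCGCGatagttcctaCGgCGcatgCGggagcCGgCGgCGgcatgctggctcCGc
Idh3g: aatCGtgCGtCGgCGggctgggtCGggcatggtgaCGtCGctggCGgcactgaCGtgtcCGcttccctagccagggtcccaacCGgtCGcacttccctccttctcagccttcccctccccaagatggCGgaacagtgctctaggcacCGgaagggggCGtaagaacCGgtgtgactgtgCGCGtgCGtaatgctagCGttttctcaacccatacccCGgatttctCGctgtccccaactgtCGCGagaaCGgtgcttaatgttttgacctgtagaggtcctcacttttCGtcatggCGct
Dkc1: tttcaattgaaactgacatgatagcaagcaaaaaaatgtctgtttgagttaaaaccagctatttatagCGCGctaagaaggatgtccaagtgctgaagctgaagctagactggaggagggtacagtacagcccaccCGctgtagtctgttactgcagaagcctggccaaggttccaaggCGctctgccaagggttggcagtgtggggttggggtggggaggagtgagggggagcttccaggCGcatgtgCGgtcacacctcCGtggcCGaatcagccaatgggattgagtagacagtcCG
Nono: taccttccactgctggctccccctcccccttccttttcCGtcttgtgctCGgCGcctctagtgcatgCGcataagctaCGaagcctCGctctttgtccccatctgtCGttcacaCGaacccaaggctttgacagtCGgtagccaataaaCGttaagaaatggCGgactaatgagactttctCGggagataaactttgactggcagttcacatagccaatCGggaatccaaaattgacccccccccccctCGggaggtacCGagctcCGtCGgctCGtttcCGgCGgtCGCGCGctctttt

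These windows held 19 CG in Flna, 31 in Huwe1, 27 in Idh3g, 9 in Dkc1 and 23 in Nono. RefSeq had a window for 285 of the 350 genes, and CG content did not order by class. The median was 17 CG in the early class (24 genes with a window), 18 in the middle class (99), 15 in the late class (47), 16.5 in genes ending at 75% to 90% (40) and 20.5 in genes ending below 75% (16). All X-linked windows in the table had a median of 7, as had all genes. The motif CCATNTT, searched on both strands as the core of the YY1 site, was present in 12.5%, 21.2%, 23.4%, 22.5% and 12.5% of the windows in the same order of classes, against 20.2% of all X-linked and 16.3% of all windows. It was found 1 time in Idh3g and not in the other 4 windows shown.

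Taken over the 274 classed genes, the cas share had a median of 50.8% at day 0, and the medians from day 5 on were 78.3%, 86.2%, 90.6%, 92.2% and 93.1%. On the share scale, most of the shift of the median had therefore taken place by the first differentiating library. Mus counts went on falling, with a median log2 change from day 0 of -1.69 at day 5 and -3.21 at day 10. The share was above its day 0 value in 267 of the 274 genes at day 5 and in 268 at day 10. The median ratio of mus to cas counts relative to day 0 was 0.296 at day 5 and 0.168, 0.124, 0.106 and 0.0829 on the later days. Genes at 90% or more numbered 34, 86, 143, 177 and 189 at days 5, 6, 7, 8 and 10, and 0 at day 0. At day 10, 55 genes stood at 97% or more and 16 had no mus count.

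Classes differed in course rather than only in end point. The early class had a median cas share of 59.0% at day 0 and 92.8%, 94.2%, 96.7%, 96.6% and 97.4% later. The middle class had 51.4% at day 0 and then 80.7%, 89.5%, 93.5%, 94.3% and 94.7%. In the late class the values were 50.3% at day 0 and 76.0%, 84.1%, 86.9%, 91.6% and 93.1%, so that late genes had covered much of the distance by day 5. Genes ending at 75% to 90% stood at 50.4% at day 0 and at 72.2%, 77.7%, 82.3%, 82.9% and 82.6%, with little further shift after day 7. Genes ending below 75% stood at 44.6% at day 0 and at 59.2%, 59.7%, 60.8%, 66.1% and 62.6%. These values chose the classes and are a description. The background, 3101 autosomal genes with a day 0 share of 25% to 75% and at least 10 counts in each library, had a median of 49.5% at day 0 and 50% to 50.6% later.

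**Figure D1:**
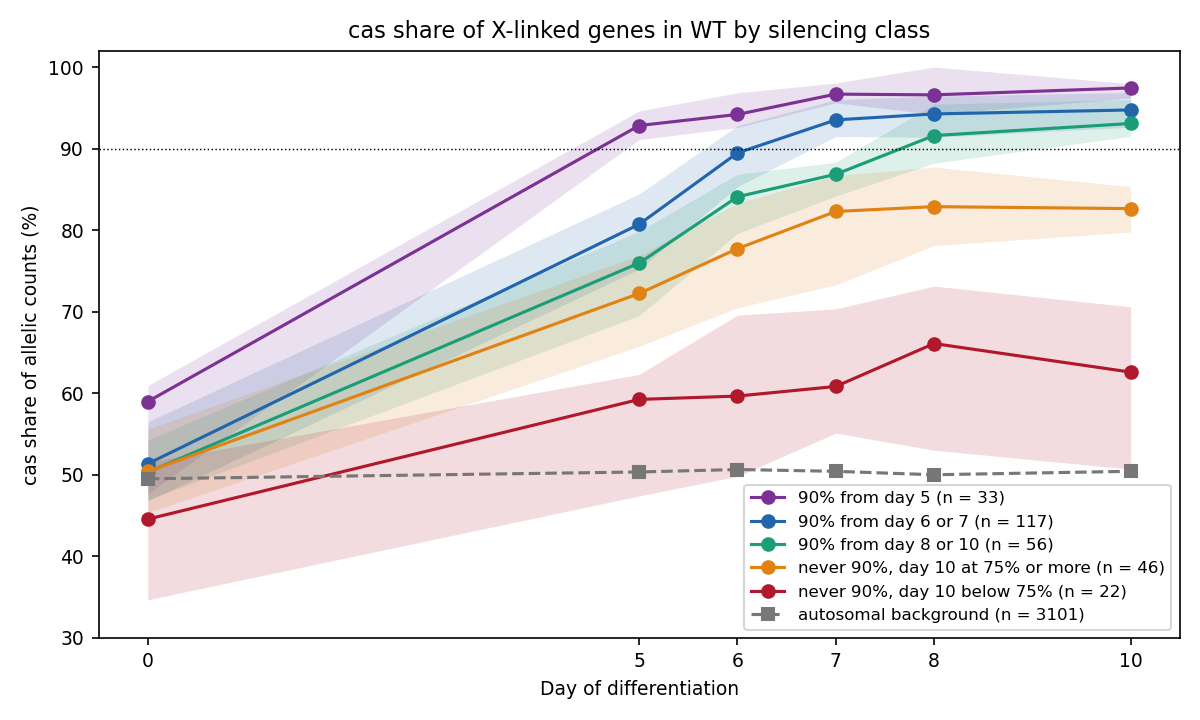
Median cas share of allelic counts (%) by day of differentiation in WT for the 5 classes of X-linked genes and the autosomal background, with bands from the lower to the upper quartile over genes and a dotted line at 90%. The early class stood at 92.8% at day 5, genes ending below 75% stayed between 59.2% and 66.1% after day 0, and the autosomal median stayed near 50%.

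Over days 5 to 10 the cas share was higher than at day 0 in 273 of the 350 genes and lower in 0, by edgeR's quasi-likelihood test on cas and mus counts with Benjamini-Hochberg adjustment over all genes fitted. Of all 10884 genes fitted, 4.38% were called higher and 1.65% lower, and of 3282 autosomal genes balanced at day 0, 1.80% and 1.61%. The median log2 odds ratio of the 350 genes was 2.78, against 0.21 over all genes fitted. At an unadjusted p under 0.05, 306 were higher and 2 lower. All 33 early genes passed, with 114 of 117 middle genes, 53 of 56 late genes, 38 of 46 genes ending at 75% to 90% and 11 of 22 ending below 75%, counts that follow from how the classes were drawn. With 1 library per day the fit passes through day 0 exactly and its spread is that around a straight line over days 5 to 10 (3 residual degrees of freedom), so no p speaks for other cultures. DESeq2 on the same columns called 118 higher and 0 lower. Among genes described here, Dkc1, Dusp9, Utp14a, Wbp5, Plp2, Firre, Mageh1, Magee1, Rpgr, Chic1 and Ubl4a were called higher by edgeR and not by DESeq2.

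**Figure D2:**
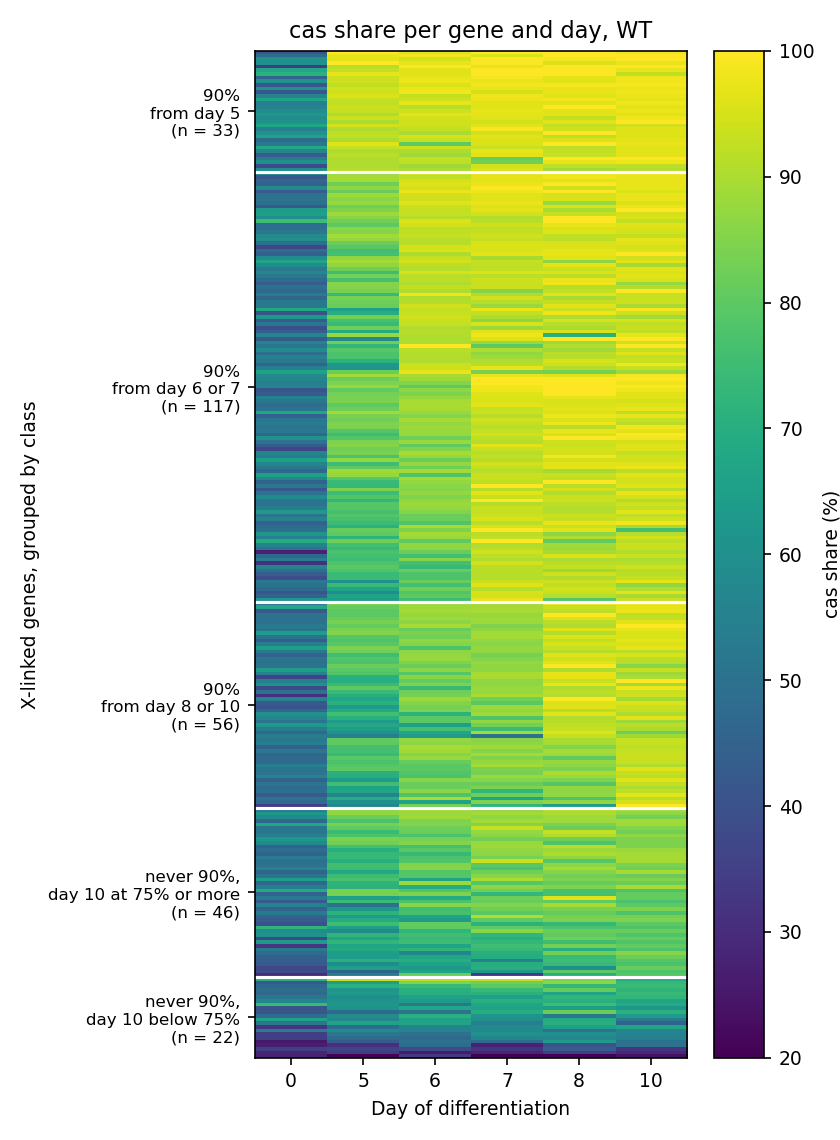
Cas share (%) of each of the 274 classed X-linked genes (rows, grouped by class, white lines between classes) on each day in WT (columns), on a colour scale from 20% to 100%. The 33 early genes are at 90% or more at day 5, while the 22 genes at the foot end below 75%.

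The most deeply covered early gene was Flna. It encodes the actin crosslinker filamin A (chromosome X of mm9, first listed exon 71468800 to 71469316). Flna gave a cas share of 47.7% at day 0 and 90.1%, 93.2%, 95.7%, 95.7% and 96.7% at days 5, 6, 7, 8 and 10, over 2734 to 7187 allelic counts a day. It therefore reached the threshold by a narrow margin at day 5 (exact Clopper-Pearson 95% interval 89.4% to 90.8%). Its mus level was 102.2 CPM at day 0 and 39.6, 30.4, 18.9, 15.4 and 13.4 CPM later, while its cas level was 93.0 CPM at day 0 and 359, 414, 415.5, 339 and 393.5 CPM later. Both moved: mus counts fell (log2 -2.23, adjusted p = 0.000476) and cas counts rose (log2 2.05, adjusted p = 1.71e-05). The log2 odds ratio for the share was 4.28 ± 0.17 (SE, adjusted p = 8.94e-35).

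Amot, a junctional scaffold of the angiomotin family, went to a high cas share by a different route. Its cas share was 45.3% at day 0 (53 allelic counts, interval 31.6% to 59.6%) and 94.0%, 97.01%, 98.6%, 96.9% and 97.9% later. Its mus level stayed low, at 1.63 CPM at day 0 and between 0.832 and 3.60 CPM later, and did not pass the test (log2 0.63, adjusted p = 0.55). Its cas level was 1.35 CPM at day 0 and 13.1, 116.5, 229.7, 99.6 and 90.7 CPM later (log2 6.31, adjusted p = 5.3e-06). The cas counts rose, and the mus counts did not pass.

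Maged2, of the MAGE family, had a cas share of 59.9% at day 0 and 92.8%, 94.0%, 97.02%, 96.5% and 97.6% later, with cas counts up (log2 2.48, adjusted p = 1.9e-06) and mus counts down (log2 -1.45, adjusted p = 0.024). Slc7a3, a cationic amino acid transporter, had lower counts of both alleles over days 5 to 10 than at day 0. Its cas level first rose, from 25.2 CPM at day 0 to 53.0 and 31.5 CPM at days 5 and 6. The cas level then stood at 15.3, 4.54 and 2.43 CPM at days 7, 8 and 10. Slc7a3 had a mus level of 11.7 CPM at day 0 and 3.99, 2.14, 1.10, 0.389 and 0.101 CPM later. Its shares were 68.4% at day 0 and 93.0%, 93.6%, 93.3%, 92.1% and 96.0%, with mus counts down by a log2 of -3.76 and cas counts down by -1.01 (adjusted p = 0.00029 and 0.019). Slc7a3 was the 1 early gene with a called fall of cas counts over days 5 to 10. Acsl4, an acyl-CoA synthetase, had shares of 66.2% at day 0 and 92.7%, 95.2%, 96.7%, 92.3% and 95.3%, and Armcx2 had 61.0% at day 0 and 94.6%, 97.6%, 97.2%, 97.2% and 97.6%. Ubqln2, which shuttles ubiquitylated proteins to the proteasome, had 54.7% at day 0 and 92.4%, 97.1%, 96.1%, 96.1% and 97.9%. Prps2, a phosphoribosyl pyrophosphate synthetase, had 59.0% at day 0 and 91.2%, 90.1%, 95.6%, 89.3% and 91.1%.

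Early genes reached a high cas share by a fall of mus counts, a rise of cas counts or both. Cas counts rose in 17 of 33 early genes and fell in 1, with a median log2 of 1.26 over days 5 to 10 against day 0, and mus counts fell in 24 and rose in 0. In 15 genes mus counts fell without a rise of cas counts, in 9 mus fell and cas rose, in 8 only cas rose and in 1 neither passed. Total counts rose in 7 and fell in 4 (21.2% and 12.1%, median log2 0.50), against 12.2% and 16.3% of all genes fitted. Over all genes fitted, cas counts rose in 5.42% and fell in 5.19%, and mus counts fell in 14.0% and rose in 10.6%. In balanced autosomal genes cas counts rose in 9.26% and fell in 11.4%. The cas and mus counts also gave the shares that chose the early class, so these calls are a description. The class also began higher, with a median cas share of 59.0% at day 0 against 50.8% over all classed genes. When the mus to cas ratio was taken relative to day 0 in place of the share, 20 genes were early, 18 of them among these 33.

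In most middle genes the mus counts fell and the cas counts did not pass the test. Huwe1, a ubiquitin ligase, had a cas share of 50.6% at day 0 and 79.0%, 88.0%, 90.8%, 91.9% and 94.1% later. Its mus level was 121 CPM at day 0 and 33.2, 17.1, 11.6, 4.15 and 3.44 CPM later, against 124 cas CPM at day 0 and 125, 125, 115, 47.2 and 54.7 cas CPM. Mus counts fell (log2 -3.58, adjusted p = 0.00021) and cas counts did not pass (log2 -0.49, adjusted p = 0.38). Msn, the membrane to actin linker moesin, had shares of 50.4% at day 0 and 85.7%, 93.9%, 96.0%, 95.3% and 97.5%. Its mus level fell to 9.87, 4.91, 4.30, 4.02 and 2.94 CPM over days 5 to 10, against 59.95 CPM at day 0 (log2 -3.63, adjusted p = 0.000146).

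Hcfc1, a transcriptional coregulator, had 50.5% at day 0 and 84.5%, 87.5%, 91.0%, 94.0% and 94.9%, and the tubulin deacetylase Hdac6 had 56.5% at day 0 and 79.1%, 89.0%, 93.4%, 92.0% and 94.7%. Maged1 went further, with 49.4% at day 0 and 81.6%, 91.5%, 95.5%, 95.04% and 96.5%. Gpc3, a cell-surface glypican, had 53.7% at day 0 and 79.1%, 87.3%, 93.4%, 90.9% and 92.7%, and the nucleolar GTPase Gnl3l had 61.7% at day 0 and 80%, 89.1%, 91.8%, 86.1% and 91.1%. Gnl3l thus dipped below 90% at day 8, as did 31 of the 117 middle genes on some day after their first. Smc1a, a cohesin subunit, had 50.5% at day 0 and 74.2%, 86.6%, 91.9%, 88.0% and 93.0%. Pdha1, the E1 subunit of pyruvate dehydrogenase, had 39.0% at day 0 and 74.6%, 77.7%, 91.2%, 90.4% and 93.0%. Bex1 was uneven, at 65.5% at day 0 and 87.4%, 77.9%, 93.7%, 93.6% and 96.5%, and its mus counts did not pass the test (log2 -1.35, adjusted p = 0.12).

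Over the class, mus counts fell in 108 of 117 genes (92.3%), against 14.0% of all genes fitted. Cas counts rose in 23 (19.7%) and fell in 6 (5.13%), with a median log2 of 0.31. The shares were 5.42% and 5.19% over all genes fitted and 9.26% and 11.4% over balanced autosomal genes. As in the early class, the cas and mus counts also gave the shares that chose the class. Total counts fell in 27 (23.1%) and rose in 5 (4.27%), with a median log2 of -0.42, against 16.3% and 12.2% of all genes fitted. Of the 117, 90 had a fall of mus counts without a rise of cas counts.

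In 17 of the 56 late genes the cas share never fell between successive days from 5 to 10, as in 41 of all 274. Idh3g, a subunit of the NAD-dependent isocitrate dehydrogenase of the citric acid cycle, had a cas share of 50.4% at day 0 and 70.9%, 78.3%, 83.7%, 89.7% and 92.5% later. Its mus level was 70.1 CPM at day 0 and 24.4, 16.3, 10.5, 7.26 and 3.54 CPM later, and its cas level was 71.2 CPM at day 0 and 59.5, 58.7, 54.1, 63.3 and 43.9 CPM. Mus counts fell (log2 -2.79, adjusted p = 0.000134), and cas counts did not pass (log2 -0.35, adjusted p = 0.53). The share rose on each successive day, with a log2 odds ratio of 0.51 ± 0.06 per day over days 5 to 10 (SE, adjusted p = 3.78e-09).

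Atrx, a chromatin remodeller, had shares of 50.2% at day 0 and 78.9%, 83.0%, 89.0%, 95.4% and 95.3%. Usp9x, a deubiquitinase listed among escape genes, had 56.2% at day 0 and 69.8%, 77.6%, 88.1%, 87.9% and 91.6%. Rlim, the ubiquitin ligase that removes a repressor of Xist, had 67.1% at day 0 and 81.2%, 88.3%, 89.1%, 93.5% and 96.6%, with a mus level of 31.9 CPM at day 0 and 10.3, 5.67, 4.95, 2.34 and 1.52 CPM later. The translation factor gene Eif1ax held back until the last day, at 50.5% at day 0 and 75.4%, 81.9%, 81.6%, 78.6% and 92.8%. Tfe3, a transcription factor that holds ES cells in the pluripotent state, had 52.2% at day 0 and 82.3%, 86.6%, 87.2%, 91.2% and 92.1%. Dusp9, a MAP kinase phosphatase, had 50.7% at day 0 and 64.3%, 79.95%, 87.0%, 91.5% and 88.7%, and G6pdx, of the pentose phosphate pathway, had 51.2% at day 0 and 78.3%, 87.6%, 85.1%, 93.8% and 91.9%.

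Among late genes, mus counts fell in 53 of 56 (94.6%), against 14.0% of all genes fitted. Cas counts rose in 3 (5.36%) and fell in 8 (14.3%). The shares were 5.42% and 5.19% over all genes fitted and 9.26% and 11.4% over balanced autosomal genes. Total counts rose in 0 and fell in 26 (46.4%) by edgeR, against 12.2% and 16.3% of all genes fitted (unadjusted p under 0.05 for 1 higher and 34 lower). The cas and mus counts also gave the shares that chose the class. The median log2 of total counts was -0.76.

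**Figure D3:**
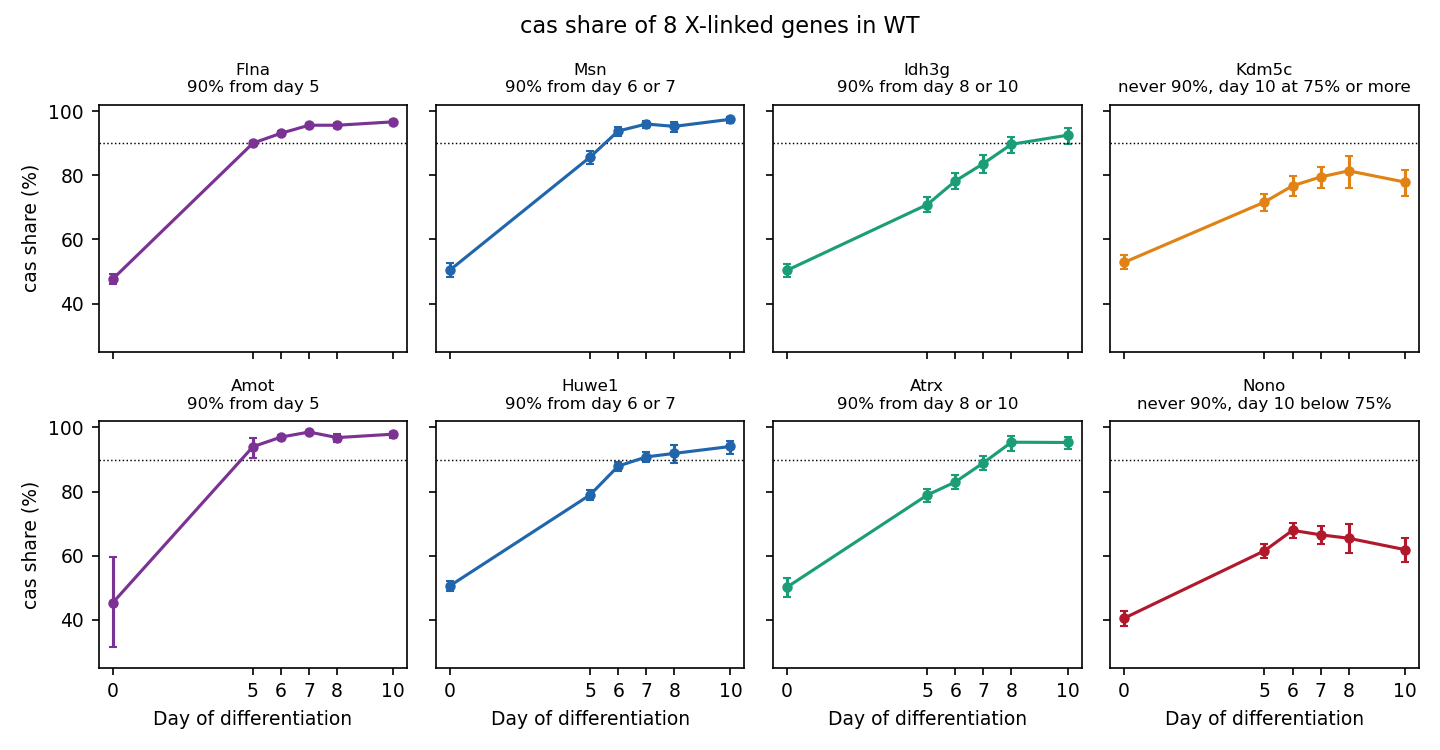
Cas share (%) by day in WT of 8 X-linked genes, 2 each of the early, middle and late classes and 1 of each class that never reached 90% (dotted line), with exact 95% intervals for counting error. Flna is at 90.1% at day 5, Idh3g climbs to 92.5% at day 10, and Nono ends at 61.9%.

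Of the genes that never reached 90% but ended at 75% or more, the most deeply covered are described. Uba1, the ubiquitin-activating enzyme, had 48.6% at day 0 and 70.3%, 79.4%, 86.9%, 88.2% and 87.9%, the last with an interval of 85.9% to 89.7% over 1159 counts. Uba1 had a mus level of 184 CPM at day 0 and 52.5, 31.1, 19.8, 17.0 and 14.2 CPM later. Dkc1, the pseudouridine synthase dyskerin, had 61.1% at day 0 and 72.4%, 75.5%, 72.5%, 80.4% and 78.0%, and counts of both its copies fell (mus log2 -2.11, cas log2 -1.10, adjusted p = 0.00036 and 0.0033). Kdm5c, a histone demethylase that escapes X-inactivation in mouse, had 52.9% at day 0 and 71.7%, 76.7%, 79.5%, 81.4% and 77.9%. Ddx3x, an RNA helicase and escape gene, had 52.5% at day 0 and 68.6%, 72.4%, 74.3%, 70.1% and 77.6%.

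Ddx3x reached these shares without a called change of either allele. The mus copy stood at 21.5 CPM at day 0 and 23.2, 20.1, 16.7, 8.17 and 8.50 CPM later (log2 -0.59, adjusted p = 0.16), and its cas level was 23.8 CPM at day 0 and 50.7, 52.6, 48.3, 19.2 and 29.5 CPM (log2 0.71, adjusted p = 0.23). Only their ratio passed (log2 odds ratio 1.30 ± 0.21 SE, adjusted p = 1.08e-06).

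Pim2, a serine/threonine kinase, showed a burst at day 5 on both copies. Mus RNA of Pim2 was 8.40 CPM at day 0 and 35.0, 17.9, 5.95, 3.63 and 0.607 CPM later, and its cas level was 11.7 CPM at day 0 and 170, 103, 41.7, 12.7 and 3.24 CPM. The cas share was 58.2% at day 0 and 82.9%, 85.2%, 87.5%, 77.8% and 84.2%, the last over 38 counts. The mus copy of Pim2 was therefore more abundant at day 5 than at day 0, at a higher cas share.

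Alg13, of the N-glycosylation pathway, and Klhl13, an adaptor of a cullin ubiquitin ligase, fell on both copies. Alg13 had shares of 42.6% at day 0 and 59.0%, 66.4%, 69.8%, 74.1% and 77.5%, with cas counts down by a log2 of -1.67 (adjusted p = 1e-05) and mus counts down by -3.29 (adjusted p = 0.00015). Klhl13 had 67.8% at day 0 and 83.7%, 84.9%, 85.3%, 84.3% and 88.5%. Bcap31, an endoplasmic reticulum chaperone of membrane proteins, was still climbing at the last day, with 45.7% at day 0 and 68.1%, 78.7%, 82.2%, 85.5% and 89.5%. Ndufb11, a subunit of respiratory complex I, had 52.6% at day 0 and 73.6%, 77.7%, 84.0%, 86.6% and 89.5%. Genes such as these lie just under the threshold: of the 68 that never reached it, 35 had a day 10 interval wholly below 90%, and of the 206 that did, 34 had the whole interval at or above it on their first day.

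The 22 genes ending below 75% had a median mus share of 37.4% at day 10. Some had a small mus share on earlier days, and 5 of them stood at a cas share of 75% to 90% at day 8. Nono, a paraspeckle and splicing protein, had a cas share of 40.5% at day 0 and 61.5%, 67.9%, 66.5%, 65.4% and 61.9% later. Its mus level was 59.6 CPM at day 0 and 43.4, 31.3, 32.1, 19.5 and 26.4 CPM later, and its cas level was 40.6 CPM at day 0 and 69.3, 66.3, 63.6, 36.8 and 42.9 CPM. After day 6 its share went no higher, with a log2 odds ratio per day over days 5 to 10 of -0.01 ± 0.05 (SE, adjusted p = 1). Ogt, which adds O-linked N-acetylglucosamine to proteins, had 47.8% at day 0 and 62.8%, 70.1%, 71.5%, 66.7% and 74.0%, and its mus level of 32.9 CPM at day 0 stood at 26.6, 16.1, 21.2, 19.7 and 20.04 CPM later (log2 -0.67, adjusted p = 0.1).

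Utp14a, of the small-subunit processome that makes ribosomes, had 48.7% at day 0 and 62.0%, 70.7%, 73.6%, 81.2% and 72.4%. Wbp5 rose on the cas copy (log2 1.35, adjusted p = 0.0048) with no called change of the mus copy (log2 0.35, adjusted p = 0.37), and its shares were 51.3% at day 0 and 59.97%, 65.9%, 65.9%, 72.6% and 72.8%. Plp2, a membrane proteolipid, had 35.0% at day 0 and 47.6%, 47.8%, 56.8%, 56.9% and 55.0%. Firre, a long noncoding RNA transcribed from both X chromosomes in mouse, had 34.6% at day 0 and 52.1%, 49.7%, 60.4%, 59.3% and 55.6%, and neither its mus nor its cas counts passed (log2 -0.33 and 0.90, adjusted p = 0.49 and 0.091). The log2 odds ratios were 1.05 for Plp2 and 1.22 for Firre, from day 0 shares well below 50%, and 1.42 for Nono.

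Some genes of this class did not pass the test. Slc25a5, the mitochondrial ADP/ATP carrier, had 28.4% at day 0 and 34.1%, 25.8%, 28.2%, 34.7% and 29.3% (log2 odds ratio 0.12, adjusted p = 0.923). Rbbp7, a histone-binding protein of several chromatin complexes, swung between 14.2% at day 8 and 33.3% at day 6, from 27.7% at day 0. Both have near-identical copies elsewhere in the genome that could share reads, so their shares are uncertain. Hprt and Nr0b1 were picked out after their values were seen. Hprt, of purine salvage, rose to 84.9%, 82.8% and 85.9% at days 6, 7 and 8 and stood at 73.2% at day 10 over 56 counts (interval 59.7% to 84.2%), and Nr0b1, a pluripotency-linked receptor, had 74.5% at day 0 and 13 counts at day 10.

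Genes known to escape X-inactivation were taken from a list of 25. Of the 17 that were classed, 0 were early, 3 middle and 4 late, 5 ended at 75% to 90% and 5 below 75%. The last 5 were Utp14a, Ogt, Firre, Kdm6a and Atp6ap2, named here as the complete count. Their median cas share was 69.8% at day 5 and 84.4% at day 10, beside 78.3% and 93.1% over all classed genes. The share was higher over days 5 to 10 than at day 0 in 15 of the 19 escape genes among the 350 and lower in 0 (median log2 odds ratio 1.94), and mus counts fell in 11. Over all 350 genes the share was higher in 78% and mus counts fell in 76.6%. Kdm6a, a histone demethylase, was among those that did not pass, with 56.8% at day 0 and 61.3%, 63.3%, 70.5%, 70.7% and 67.1% (adjusted p = 0.642).

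The genes around Xist behaved unlike each other. Tsix, antisense to Xist, had a cas share of 70.4% at day 0 and 92.9%, 91.8%, 92.3%, 84.2% and 68.8% later, over 16 to 56 counts, and did not pass (log2 odds ratio 1.54, adjusted p = 0.31). Whether counting used strand is not given in the sources used here, so Tsix and Xist counts cannot be told apart with certainty. Ftx, a noncoding gene upstream of Xist, had 48.3% at day 0 and 64.8%, 56.6%, 70%, 82.7% and 85.4% and did not pass (adjusted p = 0.108), while its cas counts rose (log2 1.60, adjusted p = 0.015). Chic1, on the other side of Xist, had 45.9% at day 0 and 61.9%, 94.0%, 91.3%, 93.9% and 98.4%. Jpx had under 20 allelic counts on average and was not followed.

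Functional groups are gene lists, given by the class of their members, and not every member belongs to the function that names its list. Their counts of calls are to be read beside those over all 350 genes, of which 78% had a higher share, 76.6% lower and 0.857% higher mus counts, 18.9% higher and 11.7% lower cas counts and 35.4% lower total counts, and several lie near them. Of 19 classed genes of the cytoskeleton, adhesion and membrane traffic, 6 were early, 9 middle, 0 late, 1 ended at 75% to 90% and 3 below 75%, with a median share of 85.6% at day 5 and 96.7% at day 10. The early ones included Flna, Amot and the axonal adhesion molecule L1cam. L1cam had 60.9% at day 0 and 96.8%, 94.8%, 100%, 98.5% and 100%. In this list, the cas share was higher in 21 of 25 genes, cas counts rose in 7 and fell in 2, and mus counts fell in 21.

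Of 20 classed genes of RNA processing and translation, 0 were early, 8 middle, 2 late, 7 ended at 75% to 90% and 3 below 75%, with medians of 72.9% at day 5 and 88.6% at day 10. The share was higher in 20 of 25 and lower in 0, and mus counts fell in 18 and rose in 1. Of 32 classed metabolic and housekeeping genes, 3 were early, 11 middle, 7 late, 7 and 4 in the slowest classes, with medians of 75.4% and 92.6%. The share was higher in 30 of 34 of them and total counts fell in 19. Of 15 classed genes of the mitochondrion and respiratory chain list, 0 were early, 8 middle, 3 late, 3 and 1 in the slowest classes. Their medians were 77.0% and 92.9%, and 14 of all 18 genes in the list had a higher share. This list also holds genes of other functions, such as Bcap31 and Pgk1, so its counts are not those of mitochondrial genes alone.

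Chromatin and transcription genes comprised 1 early, 14 middle, 7 late and 3 in each of the slowest classes among 28, medians of 81.4% and 92.9%, and 25 of 32 higher. The 1 early gene was Phf6, a chromatin reader, with 55.0% at day 0 and 90.4%, 92.7%, 99.1%, 94.2% and 96.2%, named as the complete count. Among 18 genes of the cell cycle and genome stability, 1 was early, 6 middle, 5 late, 5 ended at 75% to 90% and 1 below 75%, and 16 of 21 were higher. Of 8 dose-sensitive pluripotency and signalling genes, 1 was early (Amot), 1 middle, 4 late, and 1 in each of the slowest classes, and 8 of 10 were higher. Of the 4 classed members of germline and tumour antigen families, Maged2 and Mageh1 were early and Maged1 and Magee1 middle. Mageh1 had 51.9% at day 0 and 96.2%, 80%, 95.7%, 100% and 97.4%, over 23 to 78 counts, and Magee1 had 36.9% at day 0 and 79.2%, 94.7%, 95.5%, 95.7% and 94.8%. The lists overlap in many genes, Sms and Ogt among them, so their counts are not independent. They were set beside all classed genes with no test.

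After day 5 the cas share went on rising in part of the genes. The slope over days 5 to 10 was positive in 71 of the 350 genes by edgeR and negative in 0, against 0.900% and 0.294% of all genes fitted and 0.183% and 0.244% of the balanced autosomal genes, and at an unadjusted p under 0.05 the counts were 180 and 2. The 71 were 2 of 33 early, 36 of 117 middle, 25 of 56 late, 6 of 46 ending at 75% to 90% and 0 of 22 below 75%, with 1 gene beyond the day 0 window and 1 with low counts. The count rests on day 5: without that library 13 genes had a positive slope, and DESeq2 called 2.

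The steepest were Zfp449, Rpgr, Chic1, Zdhhc9 and Ubl4a. Zfp449, a zinc finger gene, had a cas share of 45.0% at day 0 and 76.0%, 90%, 96.6%, 96.97% and 100% later (1.36 ± 0.33 log2 odds per day, SE, adjusted p = 0.0106). Rpgr, of the ciliary transition zone, was still at 65.4% at day 5, against 68.4% at day 0, and stood at 92.8%, 97.7%, 93.6% and 98.8% from day 6 (adjusted p = 2.43e-05). Zdhhc9, a palmitoyltransferase, had 41.2% at day 0 and 59.0%, 78.7%, 95.3%, 93.4% and 96.8%, and Ubl4a, which helps target tail-anchored proteins, had 60.3% at day 0 and 78.7%, 82.4%, 92.3%, 100% and 98.6%. All 5 calls were lost without day 5 and by DESeq2.

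Split by allele, the shift came mostly from a loss of mus counts. Over days 5 to 10 mus counts fell in 268 of the 350 genes and rose in 3, namely Xist, Rpl39 and Cxx1b, against 14.0% lower and 10.6% higher over all genes fitted and 10.9% and 7.50% over balanced autosomal genes. Cas counts rose in 66 and fell in 41, against 5.42% and 5.19% over all genes and 9.26% and 11.4% over balanced autosomal genes. Total counts fell in 124 and rose in 30, against 16.3% and 12.2% of 15355 genes. The medians were -2.62 for mus, 0.22 for cas and -0.49 for total counts on the log2 scale. Of the 274 classed genes, 199 had a fall of mus counts without a rise of cas, 31 a fall of mus with a rise of cas, 19 only a rise of cas and 25 neither. In bulk RNA, fewer cells that express a copy and less RNA of it per cell cannot be told apart.

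By day, the median mus level of the early class stood at a log2 of -2.35 below day 0 at day 5 and at -2.93 at day 10, while that of the late class stood at -1.63 at day 5 and -3.75 at day 10. Late genes therefore lost more mus RNA by day 10 than early genes, as did the middle class at -3.45. The median cas level of early genes was 1.11 above day 0 at day 5 and 1.37 at day 10, and that of late genes was -0.13 and 0.07. Genes ending below 75% had lost a median log2 of -0.60 of mus counts by day 5 and -1.19 by day 10. The order of the classes on the share scale is thus not their order in loss of mus counts. The same cas and mus counts gave the shares that chose the classes, so these levels are a description.

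**Figure D4:**
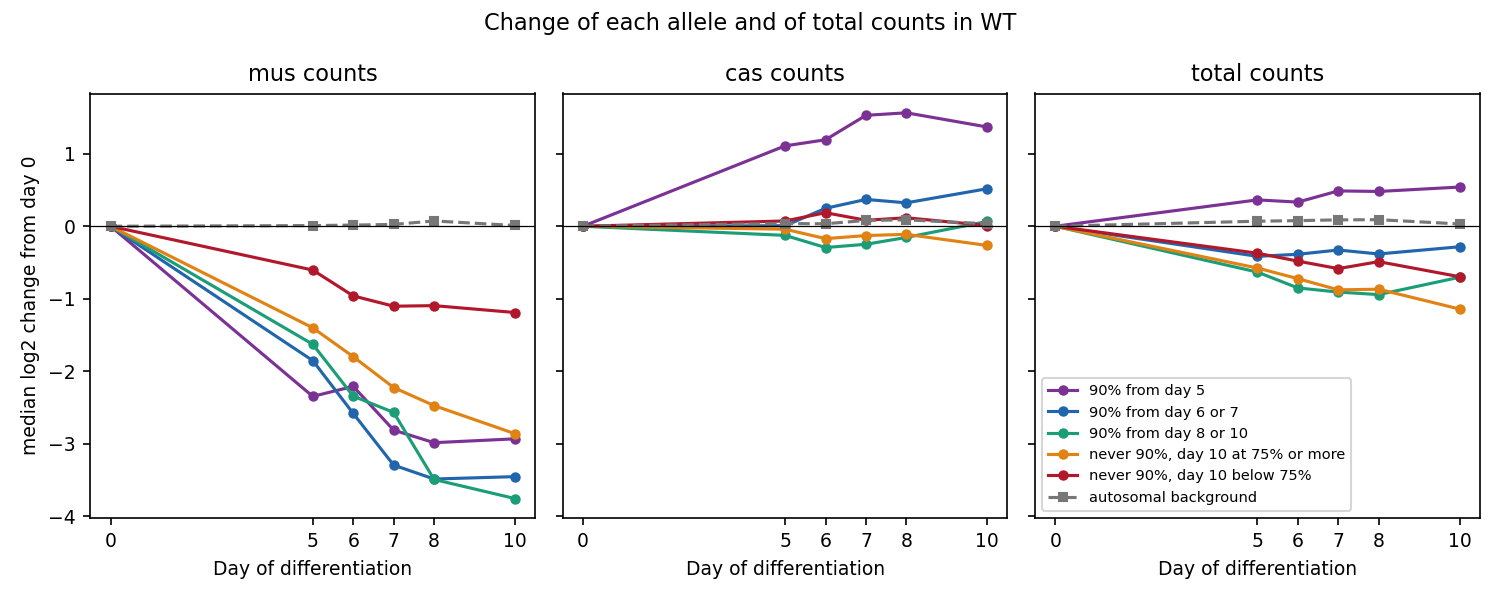
Median log2 change from day 0 of mus, cas and total counts in WT by day, for the 5 classes and the balanced autosomal genes. The early class, chosen on shares of these same counts, has the highest median change of cas counts (1.37 at day 10). The late class has the largest loss of mus counts at day 10 (-3.75).

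Early, late and resistant genes were found all along the chromosome. Across the 274 genes, the rank correlation of the distance from Xist (mm9, first listed exons) with the cas share was -0.11 at day 5 and -0.07 at day 10, over genes that share the same 6 libraries. Genes within 20 Mb on the lower-coordinate side of Xist (35 genes) had a median share of 81.6% at day 5 and 96.0% at day 10, and those within 20 Mb on the other side (18 genes) 80.7% and 93.5%. At 80 to 110 Mb on the lower side (53 genes) the medians were 76.5% and 92.4%. Early genes made up 24.2% of the 33 genes at 20 to 40 Mb above Xist and 5.66% of the 53 most distant ones. Genes of different class could lie in the same region: the early gene Flna and the late gene Idh3g lie 29.2 and 29.6 Mb below Xist.

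**Figure D5:**
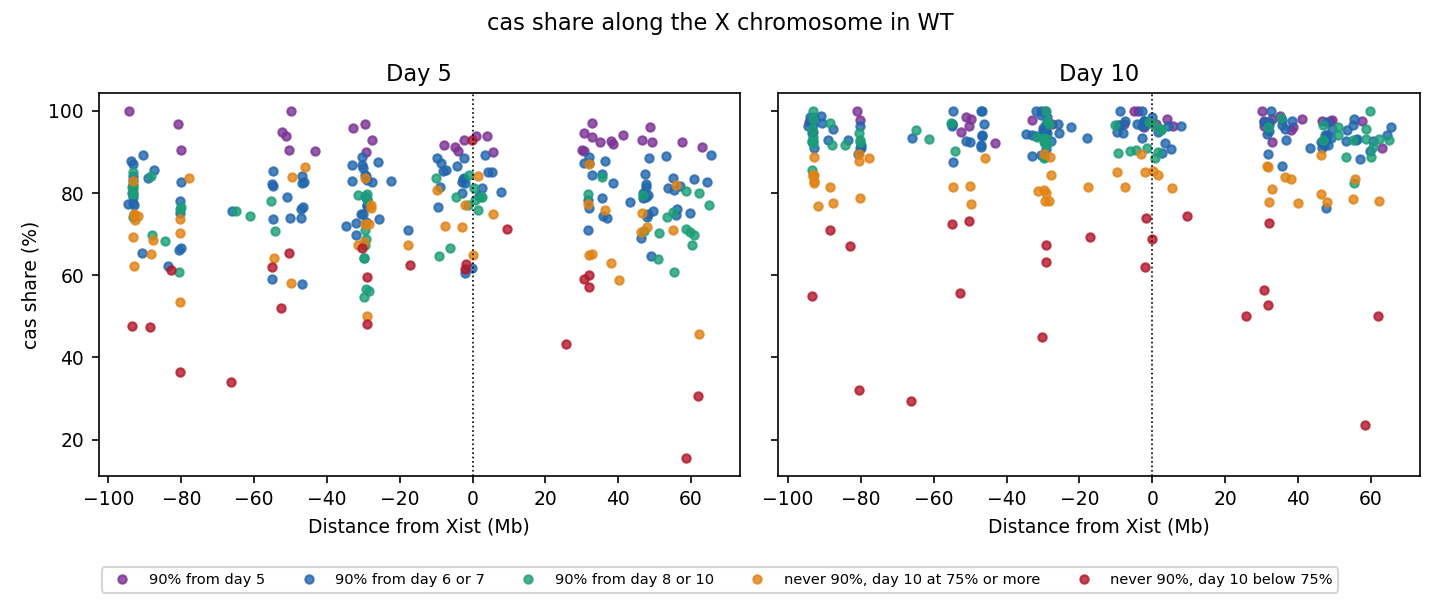
Cas share (%) of the 274 classed genes at day 5 and day 10 in WT against the distance of the gene from Xist in Mb (negative on the lower-coordinate side, dotted line at Xist), coloured by class. All classes are spread along the chromosome, with a rank correlation of -0.11 at day 5 and -0.07 at day 10 for the absolute distance.

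Genes of the slower classes were more highly expressed before differentiation, by medians. The total median level at day 0 was 9.79 CPM per kb of exon in the early class, 16.2 in the middle class, 23.4 in the late class, 34.9 in genes ending at 75% to 90% and 63.9 in genes ending below 75%. Across genes the rank correlation of this level with the cas share was -0.27 at day 5 and -0.25 at day 10 (n = 274). Genes were admitted by their mean count over all WT libraries, so a gene low at day 0 could enter through a later rise. A rise mainly of cas counts also raises the share that set the class. The median log2 change of total counts after day 0 was 0.50 in the early class and -0.76 in the late class. How far this selection shaped the trend was not tested. The slow classes also had shorter exon models, with a median of 2726 bases for genes ending at 75% to 90% and 2400 for those below 75%, against 3492 in the early class. The day 0 share itself had a rank correlation of 0.37 with the share at day 5 and 0.12 at day 10.

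Genes beyond the day 0 window included some that did not follow the rest. Bgn, the matrix proteoglycan biglycan, had a cas share of 0.438% at day 0 over 1142 counts and 30%, 90%, 93.8%, 95.7% and 93.8% later. Its mus level was 64.1 CPM at day 0 and 0.138 to 0.708 CPM later, and its cas level was 0.282 CPM at day 0 and 10.7 CPM at day 10. Feeder and fibroblast markers were present at day 0 as well: the 10 listed genes summed to 728 CPM at day 0, with 0 of them undetected, and to 69.5, 115, 550, 1369 and 8981 CPM at days 5, 6, 7, 8 and 10, where 1 or 2 were undetected up to day 8 (Fap on each of these days and Lum at day 6). Shares differed within this list, whose allelic counts were 79.14% mus at day 0. Col1a1, a fibroblast collagen, had a cas share of 1.02% at day 0 and 42.2% to 78.0% later. Thy1, Postn and Col1a2 had 50.86%, 37.04% and 18.45% at day 0. Col3a1, Pdgfrb and Dcn had 3.125%, 0% and 0% at day 0 and 2.468%, 0.2946% and 0% at day 10. Lum, S100a4 and Fap had 0 or 1 allelic counts at day 0. The 7 Y-linked genes in the table held 69 counts at day 0, 2 at day 5, 1 at days 6 and 7, and 0 at days 8 and 10, with Zfy1, Zfy2 and Usp9y undetected throughout. What feeder RNA contributes to the day 0 counts of Xist and to the day 0 shares of other X-linked genes was not tested.

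Other genes outside the window also began far from an even share. Pgk1, of glycolysis, stood at 98.0% cas at day 0 and 98.2% to 100% later, and Cox7b at 9.15% at day 0 and 6.67% to 9.46% later. Rps4x, a ribosomal protein gene, had 3.67% at day 0 and 2.67% to 17.9% later, and Rpl39 had 12.5% at day 0 and 1.85% to 44.0%, the top of each range at day 7 alone. These genes have near-identical copies elsewhere in the genome, and their shares are uncertain. Fndc3c1 and Stard8 began at 76.9% and 77.6% and stood at 97.6% and 98.6% at day 10. Of the 22 genes, 4 had a higher share over days 5 to 10 and 0 a lower one.

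The same genes in the 6 RepB libraries, which took no part in the classes, had median shares in the same order of classes at day 10 and at day 0. The cas share over days 5 to 10 was higher than at day 0 in 125 of the 350 genes in RepB and lower in 0, against 2.42% and 1.13% of all genes fitted and 1.46% and 0.914% of balanced autosomal genes (212 and 1 at an unadjusted p under 0.05). By WT class these were 24 of 33 early, 56 of 117 middle, 18 of 56 late, 13 of 46 ending at 75% to 90% and 2 of 22 below 75%. The median RepB share at day 10 was 89.7%, 75%, 66.0%, 62.5% and 49.5% in the same order of classes, and at day 0 it was 56.8%, 52.2%, 50.6%, 50.5% and 42.4%, so the order was present before differentiation. Across genes the rank correlation of the share in RepB with that in WT was 0.67 at day 5 (n = 256) and 0.43 at day 8 (n = 246), over genes with at least 10 RepB counts, which share strain variants and mapping. Flna had the lowest RepB share at day 10, 63.0%, of the 29 early genes with at least 10 RepB counts. DESeq2 called 13 genes in RepB, and RepB libraries held 3594551 to 15231930 counts.

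Depth sets how far these values can be read. The WT libraries held 7763633 (day 8) to 17773138 (day 5) total counts, of which 25.6% to 26.7% were assigned to an allele, and the 350 genes held 41929 to 135059 allelic counts a day. Over all genes the cas allele took 20.2% to 21.8% of allelic counts, and only 31.2% of the other fitted genes were balanced at day 0, so the autosomal background is not genome-wide. An allele without counts on a day is bounded by 3 counts, 0.169 to 0.386 CPM. Intervals and bounds cover counting error only, since no molecular identifiers are named. Of the 206 genes that reached 90%, 46 were below it on a later day. Just inside the minimum of 20 counts were Armcx6, Figf, Tceal1, Pak3 and Akap17b, with means of 20 to 20.8, and just outside were Nap1l3, Fmr1nb, Il2rg, Yy2 and 1700013H16Rik, with 17.7 to 19.0. Naive pluripotency markers summed to 5811 CPM at day 0 and 1120, 847, 684, 444 and 309 CPM later, and all 12 were detected on every day. Their part in the cas shares was not tested.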

How the data were processed

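RNA was measured in 12 libraries, of which the 6 WT ones are the subject. The authors deposited whole-number counts per gene, total and per allele (cas and mus), without normalization, and per the file headers a Length column, which holds exon bases summed per gene and was used for levels per kb. The submitters' processing notes name the build mm9 and the tools featureCounts, Novoalign, SAMtools, TopHat and bedtools; how reads were assigned to alleles and the strand setting are not given in the sources used here. The names of 27 genes had become dates, and 6 count columns with no matching sample were not used.

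Shares were computed from cas and mus counts, with exact Clopper-Pearson 95% intervals. Tests used R 4.3.3 and edgeR 4.0.16 (quasi-likelihood F test) on all genes averaging 20 or more allelic counts. The share tests had a block per library, an allele term, and allele by stage and allele by day within days 5 to 10. Levels of each allele and of total counts used TMM factors of total counts, with filterByExpr for total counts. P-values were adjusted by Benjamini-Hochberg over all genes fitted, at 0.05. The tests were also run on simulated data. The allelic counts there had a smaller spread between libraries than these data (fitted common dispersion 0.0123), so that run was a milder setting. DESeq2 1.42.0, other depth minimums, thresholds and normalizations, and leaving out each day were alternatives. Promoter sequences are from RefSeq (GRCm38.p6), while gene positions are mm9.

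Named genes were Xist, Tsix, Jpx, Ftx and Rlim, the 8 of each class and up to 8 beyond the day 0 window with the highest mean allelic count, up to 4 such of each list, and the 5 steepest slopes among genes averaging 50 or more counts; any other gene was chosen after its values were seen. Members, classes and lists were chosen with earlier results of these data known. Samples were grouped by genotype and day from their titles. Results for some items are not reported here.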

Additional observations from a re-analysis of the deposited data

How the results depend on the processing

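No paired analysis was possible because there was 1 library per day and the labels give no replicate numbers. DESeq2 gave fewer calls than edgeR: 118 genes with a higher cas share in WT (edgeR 273), 2 with a positive slope (71), 13 with a higher share in RepB (125) and 24 with lower cas counts (41). Refits over genes with a day 0 share of 25% to 75%, added after seeing the data, gave 228 and 261 higher in WT by DESeq2 and edgeR, slopes in 31 and 82 and RepB calls in 21 and 134. Leaving out each day in turn gave 263 to 271 higher and 0 to 1 lower in WT, 13 to 75 positive slopes (13 without day 5), 89 to 113 higher and 0 to 1 lower in RepB, 244 to 280 lower and 1 to 4 higher mus counts, 56 to 72 higher and 42 to 53 lower cas counts, and 19 to 40 higher and 99 to 144 lower total counts. The class sizes follow the threshold. At 80% there were 118 early, 9 late and 11 genes ending at 75% or more without reaching it; at 95% there were 6 early, 51 middle and 138 such genes. With at least 50 counts in each library 144 genes remained, 15 early, 59 middle, 34 late, 24 and 12 in the slowest classes. A day 0 share of 40% to 60% left 19 early and 11 ending below 75%, and the ratio to day 0 gave 20 early. With 1 day left out, classes held 33 to 36 early, 55 to 118 middle, 47 to 116 late, 48 to 57 ending at 75% or more and 22 to 29 below it, the extremes of the middle and late classes without day 7, whose removal shifts the first day by construction. Among the named genes, no called WT share or slope changed direction under an alternative run. Changes of sign without a call were not counted. The cause of the other changes was not tested.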
